A study of Mus musculus with 6 samples.

Results

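Liver mRNA of 10 genes was followed: Jun, Junb, Jund, Fos, Fosb, Fosl2, Atf3 and Maff, which encode basic leucine zipper proteins of the AP-1 network, and Egr1 and Ier2, which are switched on by the same growth and stress signals. They were taken by name, as the rows of the deposited table that carry these symbols, and all 10 were found among its 40481 genes. Mice with floxed Mttp and an inducible Villin-Cre (Mttp f/f Villin Cre ERT2, C57BL/6) received tamoxifen at 50 μg/g body weight per day for 5 days. This deletes Mttp, whose product (microsomal triglyceride transfer protein) is needed to assemble chylomicrons, in the Villin-expressing epithelium of the intestine (Mttp-IKO). The sample labels call the control pools wild type, and the study's results also name wild-type littermate controls. The design text and methods instead describe vehicle-injected littermates of the floxed line, so the exact control genotype given here rests on these. Both genotypes were male, 12 to 16 weeks old, carried on C57BL/6, and ate a methionine- and choline-deficient (MCD) diet, which causes steatohepatitis, for 3 weeks starting 3 weeks after injection, and livers were taken after 4 h of fasting. Each genotype was sequenced as 3 pools of total liver RNA, with the RNA of 3 to 4 mice combined in each. Replicates are therefore pools, and p-values measure the spread between pools and not between animals. Because tamoxifen was given to the Mttp-IKO mice and vehicle to the controls, effects of the drug and of the deletion cannot be told apart.

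AP-1 is a dimer. A Jun protein (Jun, JunB or JunD) pairs with itself or with a Fos protein (Fos, FosB, Fra-1 or Fra-2, the last encoded by Fosl2), with ATF3 or with related factors, and the pair binds short palindromic DNA elements. JNK, one of the stress-activated kinases, phosphorylates Jun, JunD and ATF2, while ERK acts on the ternary complex factors that drive Fos, Egr1 and Ier2 through the serum response factor. Most of these genes are immediate early genes, which hepatocytes and other liver cells transcribe within minutes of injury, partial hepatectomy, cytokines or handling and then shut off again, because their mRNAs are short-lived. A steady-state mRNA level says nothing of the phosphorylation of the proteins, which is what a JNK blot measures.

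Several of these genes are known to be driven by AP-1 and CREB-type factors bound close to their own start sites, so the stretches just upstream of 4 of them are shown. RefSeq promoter windows (build GRCm38.p6) matched 8 of the 10 genes, in 10 windows. Egr1 and Ier2 had no window and were not searched. The 250 bases before each start were searched on both strands for TGACTCA (the TPA response element bound by Jun-Fos dimers), TGACGTCA (the cAMP response element), its variant TGACATCA, the core TGACG that is contained in TGACGTCA, GCGTGGGCG (bound by EGR proteins) and the CArG box of the serum response factor. In the lines that follow, capitals mark the TGACGTCA, TGACATCA and TGACG letters (CGTCA where the match is on the other strand), and each line ends at the base before the RefSeq start. They lie at chr4:95052223-95052322 (minus strand) for Jun, chr12:85473750-85473889 (plus strand) for Fos, chr1:191183334-191183433 (minus strand) for Atf3 and chr15:79347420-79347519 (plus strand) for Maff.
Jun: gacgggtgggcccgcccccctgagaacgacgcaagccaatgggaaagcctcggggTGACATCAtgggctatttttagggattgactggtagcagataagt
Fos: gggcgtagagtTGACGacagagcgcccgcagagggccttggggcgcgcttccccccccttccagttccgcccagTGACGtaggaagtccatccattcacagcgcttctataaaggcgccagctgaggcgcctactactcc
Atf3: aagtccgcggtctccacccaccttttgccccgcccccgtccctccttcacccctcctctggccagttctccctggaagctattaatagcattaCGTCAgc
Maff: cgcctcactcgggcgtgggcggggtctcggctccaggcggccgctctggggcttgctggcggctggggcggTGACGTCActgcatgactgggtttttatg

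The Jun window held TGACATCA at bases -45 to -38 from the start, an element also found in 2.93% of all 32851 windows of this length. The Maff window shown held TGACGTCA at -29 to -22 (1.55% of all windows) and GCGTGGGCG at -88 to -80 (0.536%), and a second Maff start held TGACATCA at -45 to -38. The core TGACG was present in 6 of the 10 windows, against 17.8% of all windows, in Fos at -129 and -66, in Junb, Fosb, Atf3 and both of these Maff windows. The letters TGACTCA (4.46% of all windows) and the CArG box (1.47%) were in none of the 10 windows, which says only that these letters are not in this stretch. It says nothing of Egr1 and Ier2, which had no window. Matches are descriptions of the sequence and not evidence that a factor is bound.

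The pools held 25271585 to 36238734 reads on genes, and levels are given as CPM (the count relative to all reads on genes) scaled between pools by the trimmed mean of M values (TMM). Mttp itself is not deleted in liver, so its liver level checks no label: it was 90.4, 186 and 175 CPM in control pools 1 to 3 and 145, 129 and 161 CPM in Mttp-IKO pools 1 to 3. The 8 hepatocyte marker genes were abundant in every pool. Of the 6 pools, 2 stood apart. Control pool 2 held 2191 CPM of 10 striated muscle genes (6.68 and 285 in the other control pools, 13.5 to 18.0 in Mttp-IKO pools), and in Mttp-IKO pool 3 small RNA genes took 0.634% of reads (3.60% to 5.27% in the other pools) and mRNAs of 300 to 1000 nt took 1.70% (3.62% to 3.84%). Fold changes of the 10 genes that rest on either pool, and descriptions of spread and order that rest on Mttp-IKO pool 3, are therefore also given without it. Fold changes of other genes come from all 6 pools unless said otherwise, and some of them rest on Mttp-IKO pool 3.

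None of the 10 genes passed an adjusted p of 0.05 between genotypes in the edgeR quasi-likelihood test, in which 4.01% of the 17287 genes tested passed (694 genes, 159 higher and 535 lower in Mttp-IKO livers). The 3 closest were Atf3, with a lower mean in Mttp-IKO pools, and Ier2 and Egr1, with higher means. These 3 had an unadjusted p under 0.05, against 23.0% of all genes tested, limma-voom called 0 of the 10 (2.48% of all genes tested), and DESeq2, which called 1995 genes in all (11.5%), called the same 3. All 10 passed the filter on low counts. Their fold changes ran in both directions, from -0.98 to 0.97 on the log2 scale with a median of 0.27, beside a median of 0.01 over all genes tested. Without the 2 pools that stood apart the median of the 10 was -0.16, and 1 gene, Ier2, passed, where 12.3% of 17444 genes passed.

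**Figure D1:**
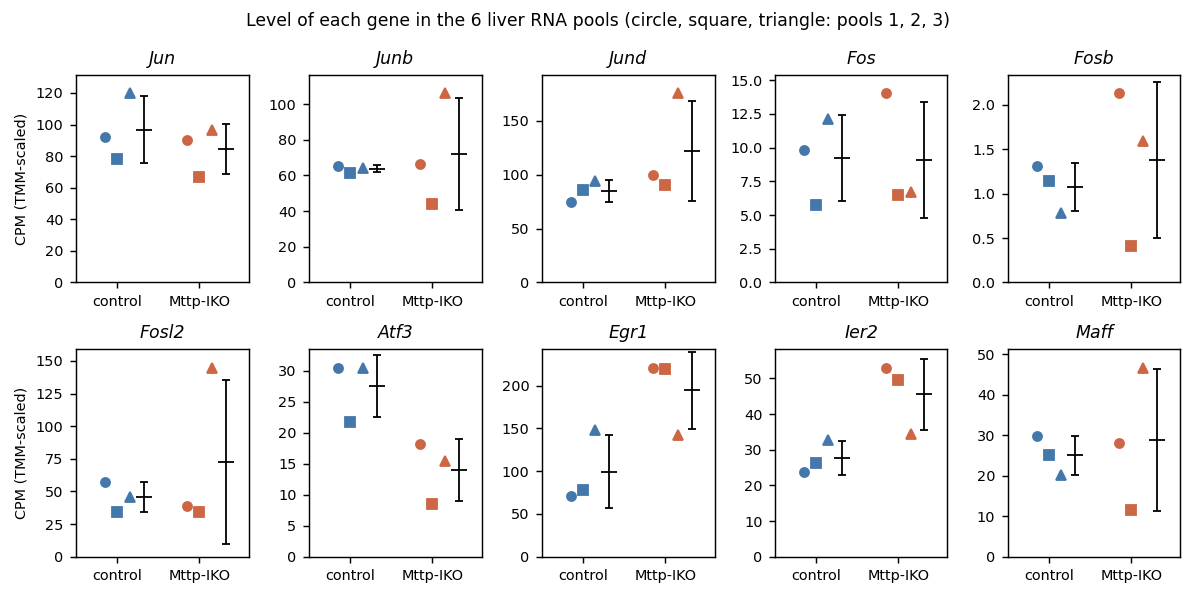
TMM-scaled CPM of each of the 10 genes (vertical axes, linear, from 0) in the 3 control pools (blue) and the 3 Mttp-IKO pools (orange), with symbols for pools 1, 2 and 3 and, in black, the mean and SD of the 3 pools. Atf3 and Ier2 are the 2 genes whose pools do not overlap between genotypes, and for Fosl2, Junb, Jund and Maff the highest of all 6 pools is Mttp-IKO pool 3.

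Atf3 encodes a repressor and activator induced by cell stress that can pair with Jun proteins. Its level was 30.4, 21.7 and 30.5 CPM in control pools 1 to 3 and 18.1, 8.44 and 15.4 CPM in Mttp-IKO pools 1 to 3. The 3 control pools were all above the 3 Mttp-IKO pools, and the lowest value, in Mttp-IKO pool 2, rested on 246 reads. The means were 27.5 ± 5.04 CPM and 14.0 ± 5.01 CPM (SD, n = 3 pools each), a log2 fold change of -0.98 (SE 0.288, 95% interval -1.64 to -0.31) with an adjusted p = 0.0983 by edgeR. The exact two-sided permutation test gave p = 0.1, the smallest that 3 pools against 3 can give, and 31.0% of all genes tested had pools that did not overlap. The adjusted p for Atf3 was 0.0299 by DESeq2 and 0.0438 by edgeR with the replicate number as a block, and it ranged up to 0.295 when control pool 3 was left out, while the log2 fold change stayed between -1.21 and -0.71 over the fits that left out 1 pool. Without the 2 pools that stood apart Atf3 had a log2 fold change of -1.20 (adjusted p = 0.0575, edgeR).

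Ier2 encodes a small nuclear protein that follows growth factor stimulation. It stood at 23.7, 26.3 and 32.9 CPM in control pools 1 to 3 and at 53.0, 49.5 and 34.3 CPM in Mttp-IKO pools 1 to 3. The groups did not overlap, but Mttp-IKO pool 3 lay close to the highest control pool. The means were 27.6 ± 4.72 CPM and 45.6 ± 9.94 CPM (SD, n = 3 pools each), which gave a log2 fold change of 0.73 (SE 0.210, 95% interval 0.24 to 1.21) with an adjusted p = 0.0946 by edgeR. Leaving out Mttp-IKO pool 3 brought it to 0.90 with an adjusted p = 0.0314, and leaving out both pools that stood apart to 0.85 with an adjusted p = 0.0254. The fits without 1 of the other 5 pools gave Ier2 log2 fold changes of 0.60 to 0.85 with adjusted p-values of 0.166 to 0.341, and scaling by total counts gave 0.55 (adjusted p = 0.163). With the trend of each library with gene length removed, the log2 fold change of Ier2 was 0.84 (adjusted p = 0.0318, edgeR), and DESeq2 gave an adjusted p = 0.0310. Ier2, at 1522 nt on chromosome 8 (84661331 to 84662852, minus strand), is the shortest of the 10 genes. Mttp-IKO pool 3 held the smallest share of reads on mRNAs of 300 to 1000 nt, a class that Ier2 is too long to be in. The part of that shortage in the Ier2 level of this pool was not tested beyond the length-corrected value.

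Egr1 encodes a zinc finger factor induced through ERK and the serum response factor. It was measured at 71.1, 78.2 and 148 CPM in control pools 1 to 3 and at 221, 219 and 143 CPM in Mttp-IKO pools 1 to 3. Control pool 3 was above Mttp-IKO pool 3, and these 2 pools alone made the groups overlap. The means were 99.3 ± 42.8 CPM and 194 ± 44.7 CPM (SD, n = 3 pools each), a log2 fold change of 0.97 (SE 0.316, 95% interval 0.24 to 1.70) with an adjusted p = 0.124 by edgeR and 0.0303 by DESeq2. The log2 fold change of Egr1 went from 0.76 without control pool 1 to 1.36 without control pool 3. Without the 2 pools that stood apart it was 1.0 (adjusted p = 0.0831, edgeR).

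Egr1 and Atf3 thus had means on opposite sides. Per kilobase of gene length, the level of Egr1 was 1.03, 1.59 and 2.16 times that of Atf3 in control pools 1 to 3 and 5.39, 11.5 and 4.10 times in Mttp-IKO pools 1 to 3. The lowest Mttp-IKO ratio was above the highest control ratio (exact two-sided permutation p = 0.1, the smallest possible, and 0.55 adjusted over the 11 sums, shares and ratios compared). This pair was picked after its values were seen, so the ratio is a description.

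**Figure D2:**
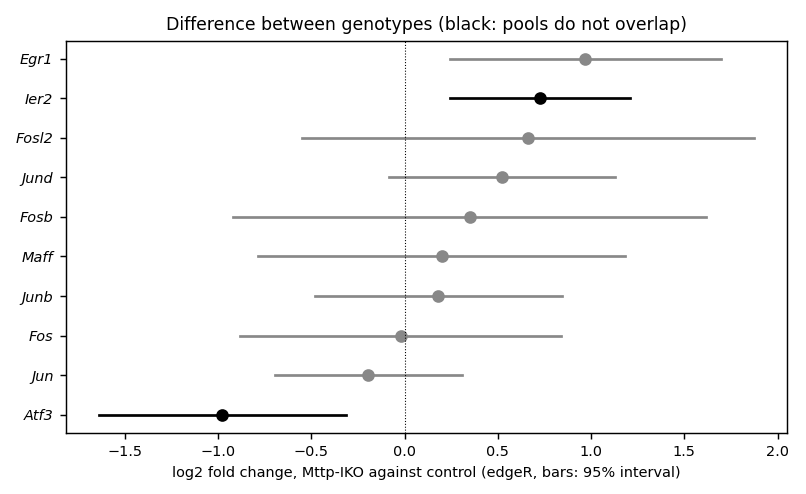
Log2 fold change of each gene, Mttp-IKO against control, from the edgeR fit over all genes (horizontal axis), with its 95% interval before adjustment for the number of genes (bars). Black marks Atf3 and Ier2, whose pools do not overlap between genotypes, and the intervals of Atf3, Ier2 and Egr1 leave out 0 while none of the 3 passes after adjustment.

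The Jun genes are intronless and encode the obligate partners of the Fos proteins. Jun, on chromosome 4 (95049034 to 95052222, minus strand), is the classical JNK substrate and was at 92.3, 77.9 and 119.7 CPM in control pools 1 to 3 and at 90.3, 66.6 and 96.6 CPM in Mttp-IKO pools 1 to 3. The ranges overlapped broadly, with means of 96.6 ± 21.2 CPM and 84.5 ± 15.8 CPM (SD, n = 3 pools each). The log2 fold change of Jun was -0.19 (SE 0.217, 95% interval -0.69 to 0.31, adjusted p = 0.632, edgeR), so differences of up to 0.69 downward or 0.31 upward are within the interval. Jun kept a negative log2 fold change in all 20 alternative fits, from -0.44 to -0.04. An antisense gene, Junos, overlaps Jun and drew 269 reads over the 6 pools, against 1943 to 3832 reads on Jun in each pool.

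Junb encodes a partner that often opposes Jun in growth control. In the control pools it varied least of the Jun genes, at 65.5, 61.5 and 64.1 CPM, whereas the Mttp-IKO pools stood at 66.6, 44.0 and 106 CPM. Mttp-IKO pools 2 and 3 thus lay below and above every control pool. The log2 fold change of 0.18 (SE 0.288, adjusted p = 0.746, edgeR) turned to -0.20 without Mttp-IKO pool 3 and to -0.23 without both pools that stood apart.

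Jund encodes the Jun protein that resting cells keep at a steady level. It was at 74.4, 86.2 and 94.2 CPM in control pools 1 to 3 and at 99.5, 90.8 and 175 CPM in Mttp-IKO pools 1 to 3. Only Mttp-IKO pool 2 fell within the control range. It had a log2 fold change of 0.52 (SE 0.263, 95% interval -0.09 to 1.13, adjusted p = 0.280, edgeR), and one of 0.17 without Mttp-IKO pool 3, the highest of the 6. In none of the 20 alternative fits did Jund, Jun or Junb pass the threshold.

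Within the Jun family the balance of the 3 mRNAs could be compared per kilobase of gene length. Jund made up 28.6%, 34.1% and 31.1% of the family in control pools 1 to 3 and 34.9%, 41.3% and 41.0% in Mttp-IKO pools 1 to 3. Every Mttp-IKO pool was above every control pool (exact two-sided permutation p = 0.1, the smallest possible, and 0.55 adjusted over the 11 comparisons of this kind). The share of Jun was 32.0%, 27.8% and 35.7% against 28.6%, 27.4% and 20.4% and overlapped (p = 0.2, exact permutation test), and that of Junb overlapped as well, at 33.1% to 39.4% against 31.3% to 38.7%. The summed level of the 3 genes was 94.4 ± 9.33 and 108 ± 37.1 CPM per kilobase (SD, n = 3 pools each), with the highest value, 149, in Mttp-IKO pool 3 and 99.1 and 76.3 in Mttp-IKO pools 1 and 2.

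**Figure D3:**
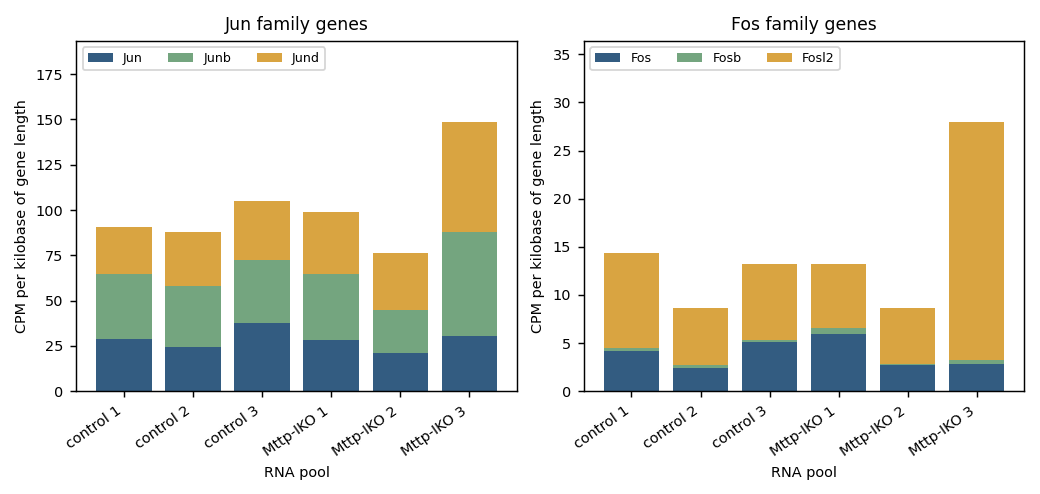
Summed TMM-scaled CPM per kilobase of gene length (vertical axes) of the Jun genes (left) and the Fos genes (right) in each of the 6 pools, split by gene. Jund takes 28.6% to 34.1% of the Jun bars in control pools and 34.9% to 41.3% in Mttp-IKO pools, and Fosl2 takes most of every Fos bar, including the tall one of Mttp-IKO pool 3.

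The Fos genes, whose proteins bind DNA as AP-1 only with a Jun partner, were at lower levels. Fos itself, the most transient of them, was at 9.79, 5.77 and 12.1 CPM in control pools 1 to 3 and at 14.0, 6.48 and 6.71 CPM in Mttp-IKO pools 1 to 3. The 2 genotypes spanned nearly the same range. Its log2 fold change of -0.02 (SE 0.374, 95% interval -0.88 to 0.84, adjusted p = 0.980, edgeR) had the other sign in 7 of the 20 alternative fits, so no direction can be given for Fos. The interval is wide enough to hold a difference of 0.84 on the log2 scale.

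Fosb, a stimulus-induced relative of Fos, was close to the limit of these data, with 12 to 66 reads in a pool. Its levels were 1.31, 1.14 and 0.781 CPM in control pools 1 to 3 and 2.13, 0.412 and 1.59 CPM in Mttp-IKO pools 1 to 3. The Mttp-IKO pools held both the highest and the lowest value. Fosb had a log2 fold change of 0.35 (SE 0.550, adjusted p = 0.743, edgeR) and one of -0.13 without Mttp-IKO pool 1.

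Fosl2 encodes Fra-2, a Fos protein that lacks a strong transactivation domain. It stood at 57.3, 34.6 and 45.8 CPM in control pools 1 to 3 and at 39.2, 33.9 and 145 CPM in Mttp-IKO pools 1 to 3. The value of Mttp-IKO pool 3 was 4.27 times that of Mttp-IKO pool 2, whereas the other 2 Mttp-IKO pools were within or just below the control range. The log2 fold change was 0.66 (SE 0.526, adjusted p = 0.489, edgeR) with all pools, -0.33 without Mttp-IKO pool 3 and -0.50 without both pools that stood apart (adjusted p = 0.0930). Fosl2 took 59.3% to 68.4% of the summed Fos family level per kilobase in control pools and 50.6%, 66.9% and 88.3% in Mttp-IKO pools 1 to 3.

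Maff encodes a small Maf protein, which lacks a transactivation domain and pairs with NRF2-type factors or with itself. It was at 29.8, 25.2 and 20.1 CPM in control pools 1 to 3 and at 28.1, 11.7 and 46.7 CPM in Mttp-IKO pools 1 to 3. As for Junb, the highest and the lowest pool were both Mttp-IKO pools, with pool 3 at 4.00 times pool 2. The log2 fold change was 0.20 (SE 0.427, adjusted p = 0.816, edgeR), -0.33 without Mttp-IKO pool 3 and -0.012 by limma-voom.

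The pools of a genotype differed more for these genes than is usual at their level. The SD of log2 CPM within genotypes ranked between the 68.4 and the 97.7 percentile of the 1000 genes nearest in average level, with Jun and Ier2 (69.4) at the low end and Maff (97.3) and Fosl2 at the top. Without Mttp-IKO pool 3 the percentiles ran from 54.7 (Jund) to 98.2 (Maff), with Fosl2 at 90.2. Mttp-IKO pool 2 was the lowest of its genotype for 8 of the 10 genes, all but Egr1 and Ier2. Mttp-IKO pool 3 was the highest for Jun, Junb, Jund, Fosl2 and Maff and the lowest for Egr1 and Ier2, whereas Mttp-IKO pool 1 was the highest for Fos, Fosb, Atf3, Egr1 and Ier2. Among the controls, pool 3 was the highest for 6 genes and pool 2 for none. Each pool holds 3 to 4 livers, and whether 1 liver sets a pool's value cannot be told apart from a shift in all of them.

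**Figure D4:**
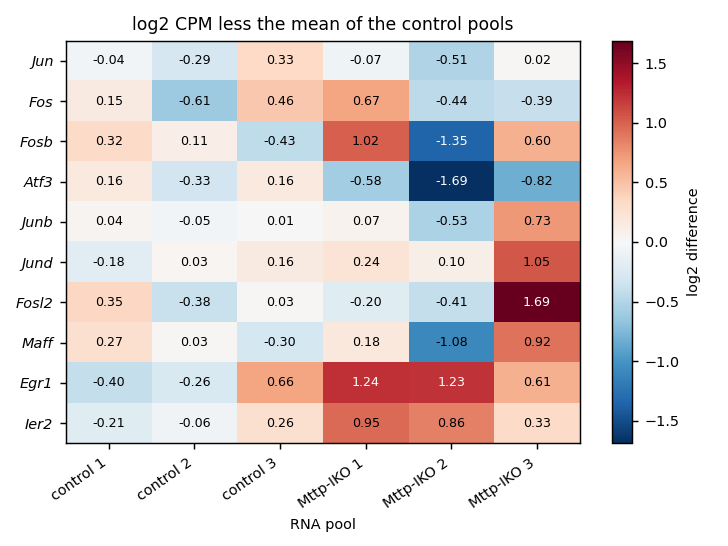
Log2 CPM of each gene (rows) in each pool (columns), less the mean of the 3 control pools, with the value printed in each cell. Mttp-IKO pool 2 is low for most genes, Mttp-IKO pool 3 reaches 1.69 for Fosl2 and 1.05 for Jund, and the 3 Mttp-IKO pools share a sign for Jund, Egr1 and Ier2 (above 0) and for Atf3 (below 0).

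Levels of different genes were compared per kilobase of gene length. In control livers the order of mean levels was Junb (34.6 CPM per kilobase), Jun (30.3), Jund (29.5), Egr1 (22.1), Ier2 (18.1), Atf3 (13.9), Maff (11.8), Fosl2 (7.84), Fos (3.92) and Fosb (0.287). Neighbours in this order overlapped between pools except Ier2 and Atf3, Fosl2 and Fos, and Fos and Fosb. In Mttp-IKO livers the order was Egr1 (43.3 CPM per kilobase), Jund (42.4), Junb (39.2), Ier2 (30.0), Jun (26.5), Maff (13.6), Fosl2 (12.4), Atf3 (7.05), Fos (3.86) and Fosb (0.367), and only Fos and Fosb did not overlap. By these means Egr1 was behind the 3 Jun genes in control pools and ahead of them in Mttp-IKO pools, but the pools were not separated, and in Mttp-IKO pool 3 Egr1 (31.8 CPM per kilobase, the lowest of its genotype) was below Jund (60.9) and Junb (57.6). Without Mttp-IKO pool 3 the order was Egr1 (49.1), Ier2 (33.7), Jund (33.1), Junb (30.1), Jun (24.6), Maff (9.38), Atf3 (6.7), Fosl2 (6.24), Fos (4.36) and Fosb (0.338). Fos and Fosb were last in both genotypes.

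The profile of the 10 genes, each scaled to unit variance over the 6 pools and then averaged, was lowest in Mttp-IKO pool 2 (-0.84) and highest in Mttp-IKO pool 3 (0.76). Of 12585 other genes with an average log2 CPM of at least 1, those most like it over the 6 pools were Trmt1 (Pearson's r 0.981), Cog5 (0.976), Hace1 (0.970), F11r (0.963) and Dhx37 (0.962). All these values come from the same 6 libraries and share their depth and composition, and the 5 were the highest of many, so the likeness is a description only. Over the 5 pools other than Mttp-IKO pool 3 the r of these genes was 0.948 to 0.970.

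Upstream of Jun, 15 of 20 genes of the JNK pathway had a log2 fold change above 0, as did 50.5% of all genes tested. Of these 20 tested genes (kinases, scaffolds, receptors and phosphatases), 1 passed the threshold as higher and 0 as lower in Mttp-IKO livers, against 0.920% and 3.09% of all genes tested, and the median log2 fold change was 0.28 against 0.01. The one that passed was Dusp4, a nuclear phosphatase that inactivates ERK and JNK. It was at 13.8, 11.7 and 9.12 CPM in control pools 1 to 3 and at 27.5, 17.9 and 25.3 CPM in Mttp-IKO pools 1 to 3 (a log2 fold change of 1.03, SE 0.227, adjusted p = 0.0488, edgeR). The Dusp4 call lay at the threshold and was lost whichever pool was left out, with adjusted p-values of 0.0658 to 0.206. With all pools it was also lost, at 0.0501 to 0.0877, under DESeq2's size factors, upper quartile scaling, total counts, limma-voom and the replicate block. The count of JNK pathway genes above 0 and the list median rest on all pools and were not taken without Mttp-IKO pool 3.

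Kinases of the JNK cascade did not pass. Mapk8, which encodes JNK1, had means of 17.5 ± 2.31 CPM (control) and 24.4 ± 4.77 CPM (Mttp-IKO; SD, n = 3 pools each), with a log2 fold change of 0.48 (adjusted p = 0.188, edgeR). Map2k4 and Map2k7, which encode the kinases that phosphorylate JNK, had log2 fold changes of 0.49 (adjusted p = 0.136) and 0.36 (adjusted p = 0.174) in the same fit. The pools of all 3 genes did not overlap between genotypes. Dusp16, a JNK phosphatase, was at 63.2 to 81.9 CPM against 95.4 to 151 CPM (log2 fold change 0.77, adjusted p = 0.0766, edgeR). Mttp-IKO pool 3 was the highest pool for Mapk8, Map2k4 and Dusp16, but not for Map2k7 or Dusp4. Map2k4 was at 62.6 CPM in this pool, against 44.4 and 47.4 CPM in Mttp-IKO pools 1 and 2. In all, 8 of the 20 genes were higher in every Mttp-IKO pool than in every control pool and 0 were lower, against 14.5% and 16.5% of all genes tested. Without the 2 pools that stood apart no JNK pathway gene passed as higher and 1, Map3k13, passed as lower, against 3.52% and 8.78% of all genes in that fit.

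In the ERK and serum response pathway, which drives Egr1 and Ier2, 0 of 23 genes passed by edgeR, against 4.01% of all genes tested. The median log2 fold change was 0.25, against 0.01 over all genes tested. Of the 23 genes, 8 were higher and 3 lower in every Mttp-IKO pool than in every control pool, against 14.5% and 16.5% of all genes tested. An unadjusted p under 0.05 was found for 8 of the 23 (23.0% of all genes tested), DESeq2 called 3 (11.5% of all genes) and limma-voom 0 (2.48%). Mapk3, which encodes ERK1, was at 55.5 to 73.9 CPM in control pools and at 43.8 to 48.7 CPM in Mttp-IKO pools (a log2 fold change of -0.52, adjusted p = 0.104, edgeR). Braf, a kinase upstream of ERK, and Elk4, a ternary complex factor, had higher means, with log2 fold changes of 0.77 (adjusted p = 0.114) and 0.73 (adjusted p = 0.137). Mttp-IKO pool 3 was the highest for both, at 93.4 CPM (Braf) and 234 CPM (Elk4). Mttp-IKO pools 1 and 2 were at 47.8 and 61.1 CPM for Braf and at 124 and 146 CPM for Elk4. Spry4, a feedback inhibitor of the pathway, was at 12.3 to 21.1 CPM against 25.1 to 29.6 CPM (log2 fold change 0.76, adjusted p = 0.0899). Mapk3, Spry4 and the ternary complex factor gene Elk3 passed without the 2 pools that stood apart, a fit in which 12.3% of all genes passed.

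Of 32 other immediate early and feedback genes, 1 passed as higher and 1 as lower, against 0.920% and 3.09% of all genes tested. Gadd45b, a stress-induced regulator of kinases that include the JNK activator MKK7, was at 8.83, 8.40 and 11.5 CPM in control pools 1 to 3 and at 20.3, 21.7 and 25.6 CPM in Mttp-IKO pools 1 to 3. The groups were well apart (log2 fold change 1.24, SE 0.187, adjusted p = 0.0192, edgeR), and without the 2 pools that stood apart the adjusted p of Gadd45b was 0.0128. Egr2, a relative of Egr1, went the other way, from 10.7, 3.88 and 8.09 CPM in control pools 1 to 3 to 2.03, 1.71 and 1.34 CPM in Mttp-IKO pools 1 to 3 (a log2 fold change of -2.15, SE 0.391, adjusted p = 0.0306, edgeR). Both calls were lost without control pool 1, control pool 3, Mttp-IKO pool 1 or Mttp-IKO pool 2, where the adjusted p was 0.0613 to 0.0998 for Gadd45b and 0.0752 to 0.130 for Egr2, and Egr2 also had an adjusted p of 0.0525 without Mttp-IKO pool 3 and of 0.0668 by limma-voom with all pools. Over all fits that left out 1 pool the log2 fold changes stayed at 1.13 to 1.36 for Gadd45b and -2.48 to -1.83 for Egr2, and the 4 fits that lost both calls made 24, 21, 55 and 0 calls among all genes.

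Feedback genes that did not pass included Zfp36, whose protein destabilises AU-rich mRNAs such as that of Fos. It was at 99.7 to 146 CPM in control pools and at 181 to 218 CPM in Mttp-IKO pools (a log2 fold change of 0.72, adjusted p = 0.0750, edgeR). Its relative Zfp36l1 had a log2 fold change of 0.64 (adjusted p = 0.140), the ERK phosphatase gene Dusp6 one of 0.57 (adjusted p = 0.107) and Ier5l, a relative of Ier2, one of -0.96 (adjusted p = 0.0853). For Zfp36l1, Mttp-IKO pool 3 was the highest, at 267 CPM against 156 and 176 CPM in Mttp-IKO pools 1 and 2. The median log2 fold change of the 32 genes was 0.07.

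Among 11 tested genes of other AP-1 family proteins, 0 passed by edgeR, DESeq2 or limma-voom, against 4.01%, 11.5% and 2.48% of all genes tested. An unadjusted p under 0.05 was found for 2 of the 11, against 23.0% of all genes tested. These were Batf and Batf2, which encode Jun partners of immune cells. Batf was at 1.61, 0.832 and 1.03 CPM in control pools 1 to 3 and at 0.451, 0.480 and 0 CPM in Mttp-IKO pools 1 to 3, where a count of 0 allows up to 0.126 CPM in pool 3 (adjusted p = 0.201, edgeR). Batf2 and Batf3 had log2 fold changes of -0.98 (adjusted p = 0.206) and -0.69 (adjusted p = 0.291). Atf2, a JNK substrate that pairs with Jun, had one of 0.35 (adjusted p = 0.316). It was highest in Mttp-IKO pool 3, at 56.0 CPM against 35.6 and 40.9 CPM in Mttp-IKO pools 1 and 2.

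Of 8 genes listed under the turnover of AP-1 proteins, 0 passed by edgeR, DESeq2 or limma-voom, against 4.01%, 11.5% and 2.48% of all genes tested. An unadjusted p under 0.05 was found for 0 of the 8, against 23.0% of all genes tested. Itch, a ubiquitin ligase for Jun and JunB that JNK activates, had a log2 fold change of 0.27 (adjusted p = 0.495, edgeR), and Cops5, which encodes the Jun-binding subunit of the COP9 signalosome, one of -0.25 (adjusted p = 0.493). Trib1, an adaptor of the COP1 ligase, was at 0.38 (adjusted p = 0.488). Nfe2l2, which is on this list but encodes the transcription factor NRF2 and not a turnover protein, was at -0.20 (adjusted p = 0.444). Mttp-IKO pool 3 lay outside all other pools for Itch (122 CPM, others 70.1 to 80.7), Cops5 (19.8, others 30.7 to 33.4) and Trib1 (140, others 62.2 to 72.3).

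Of 17 tested textbook AP-1 target genes, 13 had a log2 fold change below 0, as did 49.5% of all genes tested. Of the 17, 2 passed as lower and 0 as higher in Mttp-IKO livers, against 3.09% and 0.920% of all genes tested, and the median log2 fold change was -0.73 against 0.01 over all genes tested. Mmp13, which encodes a collagenase, was at 6.72, 3.13 and 5.90 CPM in control pools 1 to 3 and at 0.161, 0.274 and 0.420 CPM in Mttp-IKO pools 1 to 3 (a log2 fold change of -4.22, SE 0.459, adjusted p = 0.0126, edgeR). The Mttp-IKO values of Mmp13 rested on 5, 8 and 10 reads, so the size of this fold change is uncertain. Plau, which encodes urokinase, was at 13.4, 7.15 and 13.7 CPM against 2.10, 2.57 and 1.89 CPM (log2 fold change -2.38, SE 0.301, adjusted p = 0.0166, edgeR). Both were lower in every Mttp-IKO pool. Without control pool 1, control pool 3 or Mttp-IKO pool 2 the adjusted p was 0.0505 to 0.0914 for Mmp13 and 0.0652 to 0.0914 for Plau, which also missed the threshold without Mttp-IKO pool 1, at 0.0613. Without the 2 pools that stood apart 6 of the 17 passed as lower, Mmp13 and Plau among them, where 8.78% of all genes passed as lower.

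Further targets with lower means did not pass. Cd44, a hyaluronan receptor, was at 39.3 to 86.5 CPM in control pools and at 20.8 to 32.9 CPM in Mttp-IKO pools (a log2 fold change of -1.27, adjusted p = 0.0587, edgeR). The log2 fold changes were -1.68 for the cytokine gene Tnf (adjusted p = 0.0760), -1.83 for the protease inhibitor gene Timp1 (adjusted p = 0.0805) and -1.82 for the chemokine gene Ccl2 (adjusted p = 0.143). These genes are also expressed by macrophages and myofibroblasts. Of 8 markers of recruited macrophages 5 passed as lower (3.09% of all genes tested), with a summed level of 248 to 761 CPM in control pools and 73.5 to 146 CPM in Mttp-IKO pools. Of 9 markers of stellate cells and myofibroblasts 5 passed as lower, with 892 to 1582 CPM against 481 to 559 CPM. None of these markers was at 0 in all pools. The 6 Kupffer cell markers overlapped, at 298 to 436 CPM against 227 to 563 CPM, with 1 passing as higher (0.920% of all genes tested) and 0 as lower. Endothelial cell markers (467 to 513 against 463 to 510 CPM), neutrophil markers and cholangiocyte markers overlapped too, with 0 passing. The 6 B cell markers summed to 16.7 to 27.9 CPM in control pools and 4.95 to 9.19 CPM in Mttp-IKO pools, with 1 of the 5 tested passing as lower. The 8 markers of T and NK cells, of which 0 passed, summed to 5.66 to 14.1 CPM against 2.81 to 6.00 CPM, and all 8 had log2 fold changes below 0 (median -1.03). In bulk liver RNA fewer cells of a type and less RNA per cell cannot be told apart, and the part of these cells in the values of Atf3, Egr2, Batf or the AP-1 targets was not tested. The 8 hepatocyte markers summed to 65791 to 101881 CPM in control pools and 128309 to 177352 CPM in Mttp-IKO pools, with 1 of 8 passing as higher. Most of each sum was Alb, at 40131 to 69005 CPM against 84785 to 132240 CPM (adjusted p = 0.157, edgeR). The median log2 fold change of the 8 was 0.60, and 1 of them, Ttr, was below 0 (-0.55).

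**Figure D5:**
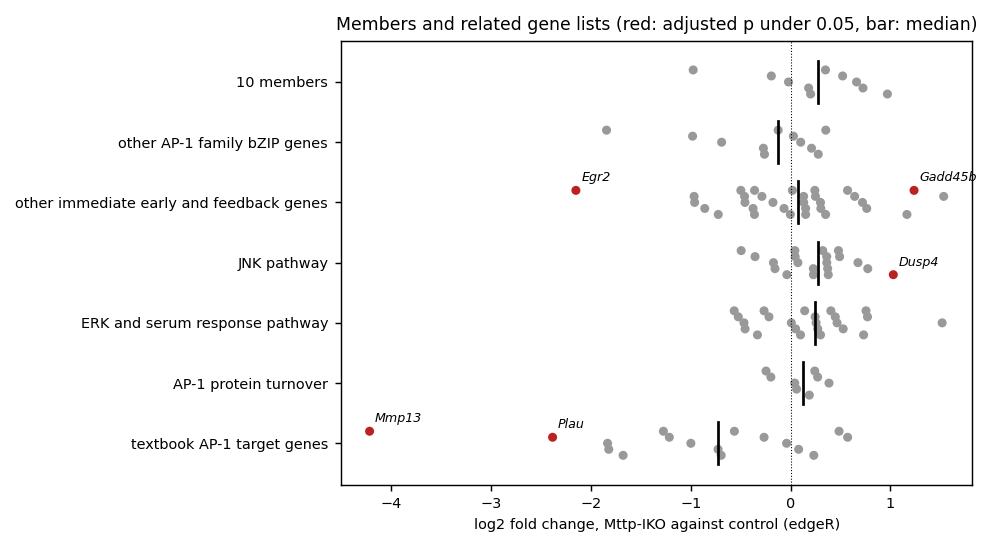
Log2 fold change, Mttp-IKO against control, of the 10 genes and of the tested genes of 6 related lists (rows), each point 1 gene, red where the edgeR adjusted p is under 0.05, with the list median as a black bar. None of the 10 is red, 5 list genes are (Gadd45b, Egr2, Dusp4, Mmp13 and Plau), and the AP-1 target list has the lowest median, -0.73.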

How the data were processed

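Total liver RNA was sequenced after ribosomal RNA depletion in 3 control and 3 Mttp-IKO pools. Per the labels and the study's methods, reads were aligned with STAR 2.5.1a to GRCm38 (Ensembl) and uniquely aligned, unambiguous reads were counted per gene by featureCounts 1.4.6-p5; the use of strand is not given in the sources used here. The authors deposited raw counts for 41388 genes per pool, with CPM (counts relative to the total on genes) and RPKM (CPM per kilobase) that follow from them. The deposited table of all pools held the same counts for 40481 genes, after 276 repeated lines were dropped. Only counts were tested, on all genes. Pools were grouped by their labels, and all pairs of pools of the same genotype differed by more than sampling noise.

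Counts were filtered with filterByExpr (minimum count 10, minimum total 15), scaled by TMM (factors 0.898 to 1.11) and compared with edgeR 4.0.16 in R 4.3.3 (quasi-likelihood test, Benjamini-Hochberg over 17287 genes, threshold 0.05), since the study names no test for counts. The script was tested on simulated data. CPM are TMM-scaled, and 3 reads, which a count of 0 allows, are 0.0744 to 0.126 CPM on this scale, counting error only. For 3 pools against 3, the smallest two-sided p of an exact permutation test is 0.1. Members and lists were chosen with earlier results of these data known, so no list was tested as a set. Named from each list were the genes past the threshold and up to 4 more of smallest unadjusted p. Genes named for likeness were the 5 with the highest correlation to the mean profile. Map3k13 and Elk3 were named after their values were seen. Alternatives were other scalings, DESeq2 1.42.0, limma-voom (limma 3.58.1), other filters, robust dispersion, a fit of protein-coding genes alone, a block for the replicate number, removal of loess trends (span 0.3) with gene length and GC content (known for 99.2% of genes), a threshold of 0.1, leaving out each pool and, chosen after seeing the data, leaving out control pool 2 and Mttp-IKO pool 3 together and giving the descriptions of spread, order and likeness without Mttp-IKO pool 3. Gene positions are those of the deposited files, promoter sequences those of RefSeq. Plots were made in Python 3.11.15 (matplotlib 3.10.9).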

Additional observations from a re-analysis of the deposited data

How the results depend on the processing

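The standard errors of the 10 log2 fold changes were 0.210 to 0.550, and Fosb, with 12 to 66 reads a pool, had the largest. Jun, Jund, Atf3, Egr1 and Ier2 kept their direction in all 20 alternative fits. Of the 10 genes, 3 passed by DESeq2, 2 at a threshold of 0.1 and 1 each with the replicate block (Atf3), the block with the length trend removed (Atf3), the length trend removed (Ier2), the length and GC trends removed (Ier2) and without the 2 pools that stood apart (Ier2), and 0 to 1 passed when 1 pool was left out. Their median log2 fold change was -0.16 without those 2 pools and -0.022 to 0.62 when 1 pool was left out.

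Of all genes, 1995 passed by DESeq2, 428 by limma-voom, 2146 without the 2 pools, 1658 at a threshold of 0.1 and 0 to 892 when 1 pool was left out (0 without Mttp-IKO pool 2, with 3221 at an unadjusted p under 0.05). Of the list genes, 17, 3, 14 and 12 passed under these same 4 settings, 9 with the replicate block and length trend removed together, and 0 to 9 when 1 pool was left out. By total counts the calls were 112 higher and 907 lower, against 159 and 535, and the median of all genes moved from 0.01 to -0.17, and the median of the members was 0.11. Fos had a log2 fold change of 0.036 with the length trend removed, 0.10 with the length and GC trends removed, 0.021 with the block and length trend removed, and -0.48 to 0.20 when 1 pool was left out. Without 1 pool Junb lay between -0.20 and 0.44, Fosb between -0.13 and 0.79, Fosl2 between -0.33 and 1.0 and Maff between -0.33 and 0.58. Without the 2 pools Junb was at -0.23, Fosl2 at -0.50 and Maff at -0.33, and Maff was at -0.012 by limma-voom. The cause of these moves was not tested, beyond the fewer pools in the fits that leave some out. Without gene length, 4 of 10 genes in control pools and 5 of 10 in Mttp-IKO pools held the same place in the order of levels. Pools with the same number had correlations of 0.139, 0.112 and 0.007 between their deviations, and all pools but Mttp-IKO pool 3 correlated best with the pool of their own number, but 1 of the 3 pairs was not over 0.1, so the numbers were not taken to pair the pools and the replicate block gave 592 calls against 694.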
